A study of Homo sapiens with 39 samples.

Results

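The comparison described here is that of CHP-134 TRIM37 mutant clone 2 with CHP-134 wild type. CHP-134 is an established neuroblastoma cell line, and TRIM37 encodes a RING-type ubiquitin ligase. Each group comprised 3 RNA sequencing libraries, so that 6 of the 39 libraries of the series entered the comparison. Clone 2 is 1 clone, labelled as a partial TRIM37 knockout, and it was compared with untreated wild-type cells of the same line. Both groups were grown in RPMI medium with serum, and total RNA was sequenced. A second mutant, clone 1, also has 3 libraries and was compared by the authors with the same 3 wild type libraries. It is therefore set beside clone 2 but is not independent of it. Genes entered by the authors' own Status. Of 23710 gene symbols, 12771 had the Status OK and are described as measured genes, 10203 had the Status Low with a mean count of at most 10.0, and 736 had the Status Outlier and are given apart. With 1 clone, changes that follow the loss of TRIM37 and changes that belong to the founding cell of the clone cannot be told apart. In bulk RNA, fewer cells of a type and less RNA per cell cannot be told apart either.

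TRIM37 lies on the long arm of chromosome 17, a region that many neuroblastomas carry in extra copies. The protein limits the assembly of pericentriolar material outside and at the centrosome, the organelle that nucleates the mitotic spindle. Cells that lose centrosomes, or that take too long over mitosis, can stop dividing through a pathway of USP28, TP53BP1 and the tumour suppressor p53. Neuroblastoma cells derive from the sympathetic lineage of the neural crest and can express an adrenergic, neuron-like programme or a mesenchymal one.

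Nearly as many measured genes were higher as lower in clone 2, and most changes were small. At a q under 0.05 in the authors' deposited table, 5898 measured genes were called, which is 46.2% of them. Of these, 2811 rose, which is 22.0% of measured genes, and 3087 fell, which is 24.2%. When the ratio of change to error was instead centred on its median and scaled by its own spread over all measured genes, 253 genes passed, of which 98 rose and 155 fell. The median absolute log2 fold change of the called genes was 0.35, and 4390 of them, or 74.4%, changed by less than 1.5-fold. Past a log2 fold change of 1, 272 genes rose and 248 fell. Past 3, 2 genes rose and 37 fell, so that the tail of large changes lay on the side of loss. The files hold no value per library, so the deposited standard error (SE) of the log2 fold change is the measure of error for each gene, and no spread between libraries can be shown. Nothing in the labels says that the 3 libraries of a group came from separate cultures, so the q-values may measure technical spread only. Its median over measured genes was 0.0887. Below a mean count of 1 the largest absolute log2 fold change in the authors' deposited table was 0.519, which means that the deposited changes of weakly expressed genes were held close to 0 and understate them. Of the sum of the deposited mean counts over all genes, the RNA helicase gene DDX1 took 5.10%.

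**Figure D1:**
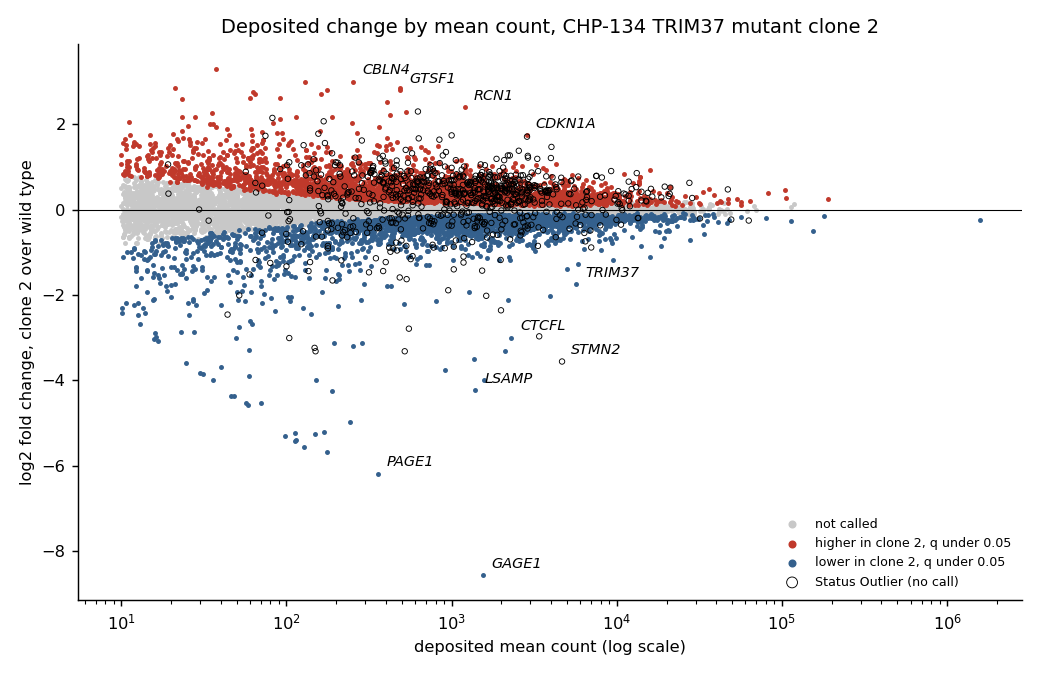
Deposited log2 fold change of clone 2 over wild type against the deposited mean count on a log axis, 1 point per gene. Red and blue points are the 2811 genes called higher and the 3087 called lower in clone 2, grey points were not called, and open circles are the 736 Outlier genes, which carry no call. GAGE1 at -8.56 and PAGE1 at -6.19 lie farthest below 0, while no rise among measured genes passes 4.

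TRIM37 itself was lower in clone 2 but was not absent. In the authors' deposited table it fell by 1.75 on the log2 scale (SE 0.0416, 95% interval -1.83 to -1.67), and the q was listed as 0. The group means that follow from the deposited mean count and fold change, called implied mean counts, are 2590 in clone 2 and 8710 in wild type, so the wild-type level was 3.36-fold that of clone 2. Clone 1 stood at -1.66 (SE 0.0337) in the authors' deposited table, and the difference between the clones of -0.09 (SE 0.0535) did not pass its test (adjusted p = 0.252). The direction of the table was set by this gene, because its header names no numerator. These RNA levels do not show how much functional protein was left.

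Of the 15 deepest losses in clone 2 at a mean count of 50 or more, 12 were of genes whose implied level in clone 1 was at or above that of wild type. PAGE1, CD44 and ARAP3 were the exceptions, with implied clone 1 means of 107, 21.7 and 241. GAGE1, an X-linked cancer-testis antigen gene, fell by 8.56 on the log2 scale (SE 0.249) in the authors' deposited table, which implies mean counts of 8.14 in clone 2 and 3072 in wild type. In clone 1 the implied level was 3154. GAGE1 belongs to a family of near-identical copies, and reads may have been split among them, so its value is uncertain. PAGE1, its neighbour among the measured genes of the X chromosome and also a cancer-testis antigen gene, fell by 6.19 (SE 0.235) in the authors' deposited table. CTCFL, the testis-specific relative of the insulator protein CTCF, fell by 3.00 (SE 0.060) in the authors' deposited table, with implied mean counts of 511 in clone 2 and 4089 in wild type. Of 50 cancer-testis genes listed, 49 were in the table. Of these, 46 had the Status Low, PRAME was measured and not called, and GAGE1 and PAGE1 were the others.

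Several genes of the cell surface and the cytoskeleton were among the largest losses. On the list of integrins and cadherins 3 rose and 6 fell of 25 measured. The falls on that list were near the 24.2% over all measured genes, of which 22.0% rose. LSAMP, a neuronal adhesion protein of the IgLON family, fell by 4.23 (SE 0.0997) in the authors' deposited table, with implied mean counts of 141 in clone 2 and 2639 in wild type. The growth factor receptor gene PDGFRA fell by 3.76 (SE 0.121) in the authors' deposited table, with implied means of 126 in clone 2 and 1706 in wild type. In clone 1 the implied PDGFRA mean was 1547, close to the wild-type value. The neuregulin receptor gene ERBB4 fell by 4.26 (SE 0.241) in the authors' deposited table, and CD44, the receptor for hyaluronan, fell by 4.54 (SE 0.320). TES, which encodes the LIM-domain protein testin, fell by 3.49 (SE 0.110) in the authors' deposited table, and SYNPO2, which encodes an actin-binding protein, fell by 3.31 (SE 0.0804). The membrane-binding protein gene ANXA2 fell by 2.11 (SE 0.0775) in the authors' deposited table, with implied means of 828 in clone 2 and 3572 in wild type. LOX, whose product crosslinks collagen, fell by 1.27 (SE 0.0492) in the authors' deposited table. Its implied means were 3435 in clone 2 and 8285 in wild type, so that LOX stayed well expressed.

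Further losses took genes of more than 100 implied wild-type counts to implied clone 2 means under 10. Because the deposited changes of weakly expressed genes were held close to 0, these clone 2 means may overstate the true level and are given as values that follow from the table. The calcium-binding protein gene S100A6 had implied means of 5.16 in clone 2 and 221 in wild type, and the hydrolase gene CMBL had 5.27 in clone 2 and 223 in wild type. ALDH1A1, an enzyme that makes retinoic acid from retinaldehyde, had implied means of 5.83 in clone 2 and 220 in wild type. NEUROD4, a proneural transcription factor gene, had 8.89 in clone 2 and 329 in wild type, and ARAP3, a regulator of small GTPases, had 6.65 in clone 2 and 343 in wild type. Their log2 fold changes in the authors' deposited table lay between -5.69 for ARAP3 and -5.21 for NEUROD4. In clone 1 S100A6, CMBL, ALDH1A1 and NEUROD4 had changes of 0.55, 0.47, 0.22 and 0.44 in the authors' deposited table. The developmental gene MAB21L2 fell by 3.99 (SE 0.104) in the authors' deposited table, with implied means of 185 in clone 2 and 2935 in wild type.

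**Figure D2:**
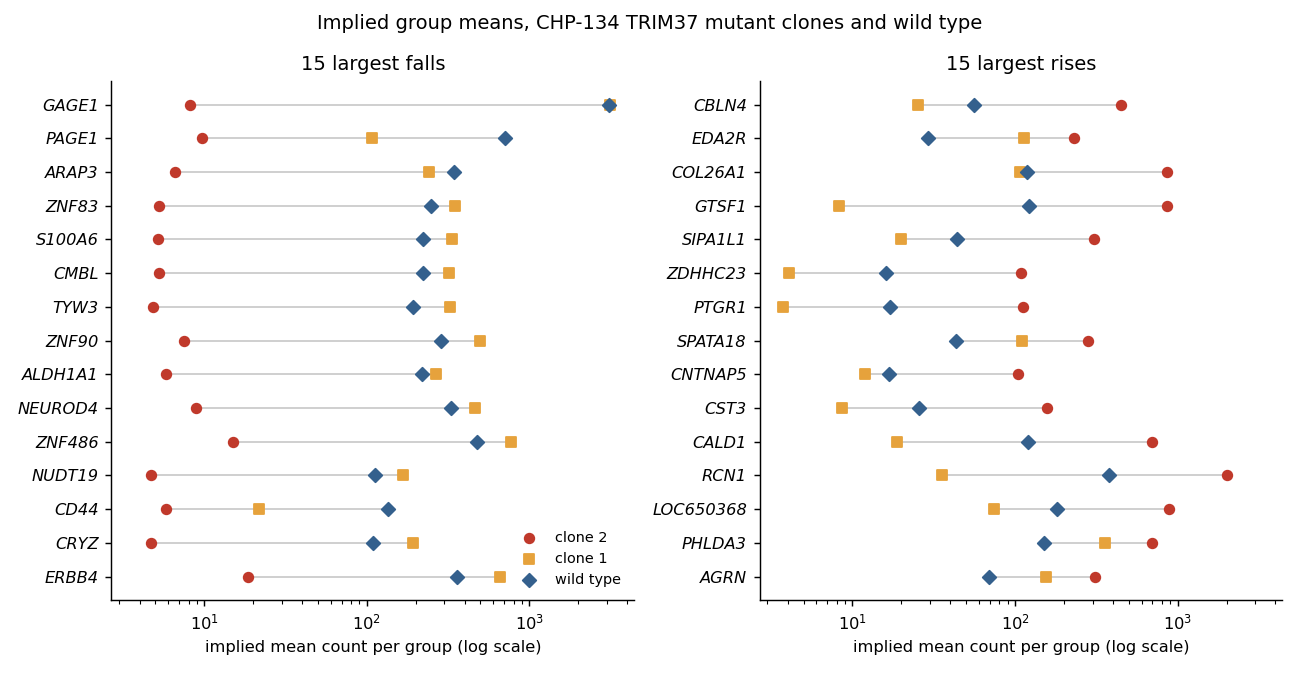
Implied mean counts on a log axis in clone 2 (circles), clone 1 (squares) and wild type (diamonds) for the 15 largest falls (left) and the 15 largest rises (right) among called genes whose mean count was 50 or more. For 12 of the 15 falls the clone 1 square lies at or to the right of the wild-type diamond, while for 11 of the 15 rises it lies to the left of it.

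The largest rises were smaller than the largest falls. At a mean count of 50 or more the largest was that of CBLN4. It encodes a secreted synaptic organiser of the cerebellin family and rose by 3.00 (SE 0.144) in the authors' deposited table, with implied mean counts of 450 in clone 2 and 56.2 in wild type. The collagen gene COL26A1 rose by 2.85 (SE 0.152) in the authors' deposited table, with implied means of 855 in clone 2 and 119 in wild type. SIPA1L1, which encodes a protein that switches off the GTPase Rap, rose by 2.81 (SE 0.157) in the authors' deposited table. Known targets of p53 were among them, where EDA2R, SPATA18 and PHLDA3 rose by 2.98, 2.70 and 2.22 in the authors' deposited table. EDA2R is a cell-surface receptor, SPATA18 acts in mitochondrial quality control, and PHLDA3 restrains the kinase AKT. Others of the 15 largest rises were CST3, which encodes the protease inhibitor cystatin C (2.61 in the authors' deposited table), and AGRN, which encodes the basement membrane protein agrin (2.16). Relative to their errors, the firmest rises also included genes of moderate fold change. COX15, needed for the haem of cytochrome c oxidase, rose by 0.90 (SE 0.0451) in the authors' deposited table, and PCGF3, a subunit of Polycomb complexes, by 1.03 (SE 0.0504). CDKN1A, the p53 target that inhibits cyclin-dependent kinases, rose by 1.74 (SE 0.0862) in the authors' deposited table, with implied means of 4387 in clone 2 and 1313 in wild type. The scaffold gene AMOTL2 rose by 1.05 (SE 0.0555) and the channel subunit gene CNGB1 by 1.94 (SE 0.102) in the authors' deposited table.

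Several of the genes that rose in clone 2 were nearly lost in clone 1. The difference between the clones was tested per gene from the deposited values of both tables over 12579 genes measured in each, and 2580 genes differed at an adjusted p under 0.05, which is 20.5%. Of these, 1169 were higher and 1411 lower in clone 2 than in clone 1. GTSF1, a factor of the germline piRNA pathway, had implied means of 856 in clone 2, 8.22 in clone 1 and 122 in wild type. Its difference between the clones of 6.55 on the log2 scale (SE 0.280) was the largest in that direction at a mean count of 50 or more in both tables (adjusted p = 6.67e-118). RCN1, which encodes a calcium-binding protein of the endoplasmic reticulum, had implied means of 2020 in clone 2, 35.3 in clone 1 and 380 in wild type. CALD1, which encodes the actin-binding protein caldesmon, had 693 in clone 2, 18.7 in clone 1 and 121 in wild type. In all, 357 genes were called with opposite signs in the clones and also differed between them, of which 149 rose and 208 fell in clone 2. Clone 1 alone had 2388 calls of 12791 measured genes, which is 18.7%. As both clones were set against the same wild type libraries, an error in those libraries would move both in 1 direction.

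Across all measured genes the change followed the GC content of the transcript. Genes were cut into 10 equal bins of GC content. In the lowest bin, 4.36% rose and 51.5% fell in clone 2, with a median log2 fold change of -0.21. In the highest bin, 59.0% rose and 3.95% fell, with a median of 0.36. The medians of these same bins in clone 1 were -0.071 and 0.18. Over 12382 genes with a known GC content the Pearson correlation of GC content with the log2 fold change was 0.364 and the Spearman correlation 0.515 in clone 2, against 0.268 and 0.346 in clone 1. Genes are not independent replicates, so these are descriptions. After the median of each of 20 GC bins was removed, 2041 genes rose and 1984 fell. Its part in any single result was not tested, and the counts with this trend removed are given beside most gene groups. They are to be read against those 2041 and 1984 of 12771 measured genes. The deposited counts of gene groups are to be read against 22.0% up and 24.2% down.

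**Figure D3:**
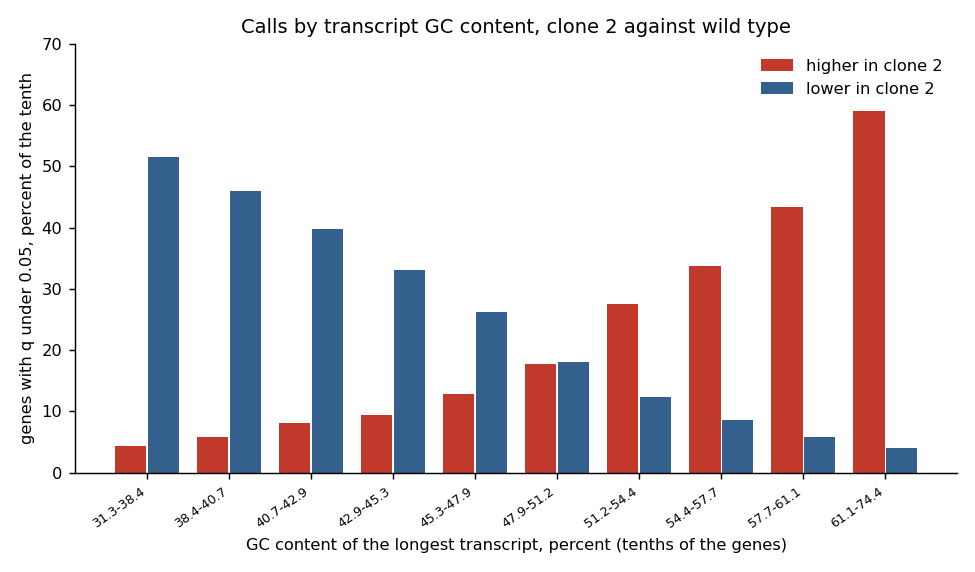
Share of measured genes called higher (red) and lower (blue) in clone 2, in percent, in 10 equal bins of the GC content of the longest transcript. The share of rises grows from 4.36% in the lowest bin to 59.0% in the highest, and the share of falls shrinks from 51.5% to 3.95%.

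Targets of p53 rose as a group. Of 37 measured members of the list, 28 rose, 4 fell and 5 were not called, with a median log2 fold change of 0.48. Over all measured genes 22.0% rose and 24.2% fell, with a median of -0.012. Another 5 members had the Status Outlier, 3 with a positive and 2 with a negative change. With the GC trend removed, 28 rose and 2 fell. All 5 measured genes of cell cycle arrest rose. Besides CDKN1A these were PLK2 at 1.24, SESN2 at 0.92, PLK3 at 0.88 and SESN1 at 0.48 in the authors' deposited table. Among apoptosis genes, BBC3, which encodes the death-promoting protein PUMA, rose by 2.12 (SE 0.221), and BAX by 0.73 (SE 0.123) in the authors' deposited table. All 5 measured members listed under repair rose, and 4 of them did so with the GC trend removed. DDB2, a damage sensor of nucleotide excision repair, was at 0.61 in the authors' deposited table. FDXR, listed with them although it encodes the mitochondrial enzyme ferredoxin reductase, was at 1.34 in the authors' deposited table. The feedback regulator MDM2, the ubiquitin ligase for p53, rose by 0.14 (SE 0.0606) in the authors' deposited table. The 4 members that fell were CMBL, ABCA12, PERP and TMEM68, at -5.40, -0.61, -0.43 and -0.22 in the authors' deposited table, and TMEM68 stood at 0.01 with the GC trend removed. The list rose in clone 1 too, where 22 of 37 measured members rose and 1 fell, with a median of 0.28. Compared with clone 1, 12 of the 37 members were higher in clone 2 and 4 were lower. CDKN1A was higher in clone 2 by 0.66 (SE 0.115, adjusted p = 2.24e-07).

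The promoters of 2 risen p53 targets are shown because each holds a match to the p53 full site. RefSeq gives the promoter as 250 bases before to 50 after the start of the gene on GRCh38.p14. PTCHD4, a patched-domain protein, rose by 1.53 (SE 0.179) in the authors' deposited table, and RPS27L, a ribosomal protein paralogue, by 1.00 (SE 0.0719). The sequences run 5′ to 3′ on the strand of the gene, and capitals mark the match. PTCHD4 lies at chr6:48111148-48111447 on the minus strand and RPS27L at chr15:63157428-63157727 on the minus strand.
PTCHD4: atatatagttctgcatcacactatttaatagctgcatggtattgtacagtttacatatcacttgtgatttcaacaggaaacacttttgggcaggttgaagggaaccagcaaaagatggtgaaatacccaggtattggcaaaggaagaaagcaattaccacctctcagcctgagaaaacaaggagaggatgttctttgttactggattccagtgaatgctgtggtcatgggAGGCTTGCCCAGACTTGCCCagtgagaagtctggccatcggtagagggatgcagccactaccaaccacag
RPS27L: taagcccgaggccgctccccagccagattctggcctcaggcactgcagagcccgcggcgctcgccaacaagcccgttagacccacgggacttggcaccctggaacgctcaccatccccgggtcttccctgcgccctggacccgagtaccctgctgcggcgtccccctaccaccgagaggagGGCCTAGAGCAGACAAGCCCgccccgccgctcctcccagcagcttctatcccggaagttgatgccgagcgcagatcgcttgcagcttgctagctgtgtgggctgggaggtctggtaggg
The site searched was a pair of p53 half-sites on either strand, at most 2 bases apart and with at most 3 mismatches outside their 2 cores. The RPS27L match reached this limit of mismatches, while the PTCHD4 match had none. Among known promoters of measured genes, the site was present in 0.901% of those that rose and 0.829% of those that fell. It was present in 3 of the 23 promoters known for p53 targets that rose, against 1.20% of all 27305 promoters. No match in the other 20 says only that these letters are not in this window.

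Genes of DNA replication fell, each by a small amount. Of 44 measured members of the S phase and E2F list, 3 rose, 28 fell and 13 were not called, with a median of -0.17. With the GC trend removed, 0 rose and 26 fell. The origin licensing genes included MCM4, a subunit of the replicative helicase, at -0.66 (SE 0.0592), and CDC6, which loads that helicase, at -0.33 (SE 0.0434) in the authors' deposited table. At the replication fork, RFC4, a subunit of the clamp loader, fell by 0.84 (SE 0.0464) in the authors' deposited table. POLA1, the catalytic subunit of DNA polymerase alpha, fell by 0.30 (SE 0.0379) there. CDC6 had implied means of 8660 in clone 2 and 10900 in wild type. The 3 members that rose were LIG1, E2F1 and POLE, at 0.31, 0.16 and 0.15 in the authors' deposited table, and E2F1 stood at -0.13 with the GC trend removed. In clone 1, 0 members rose and 16 fell, and 7 of the 44 were lower in clone 2 than in clone 1.

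**Figure D4:**
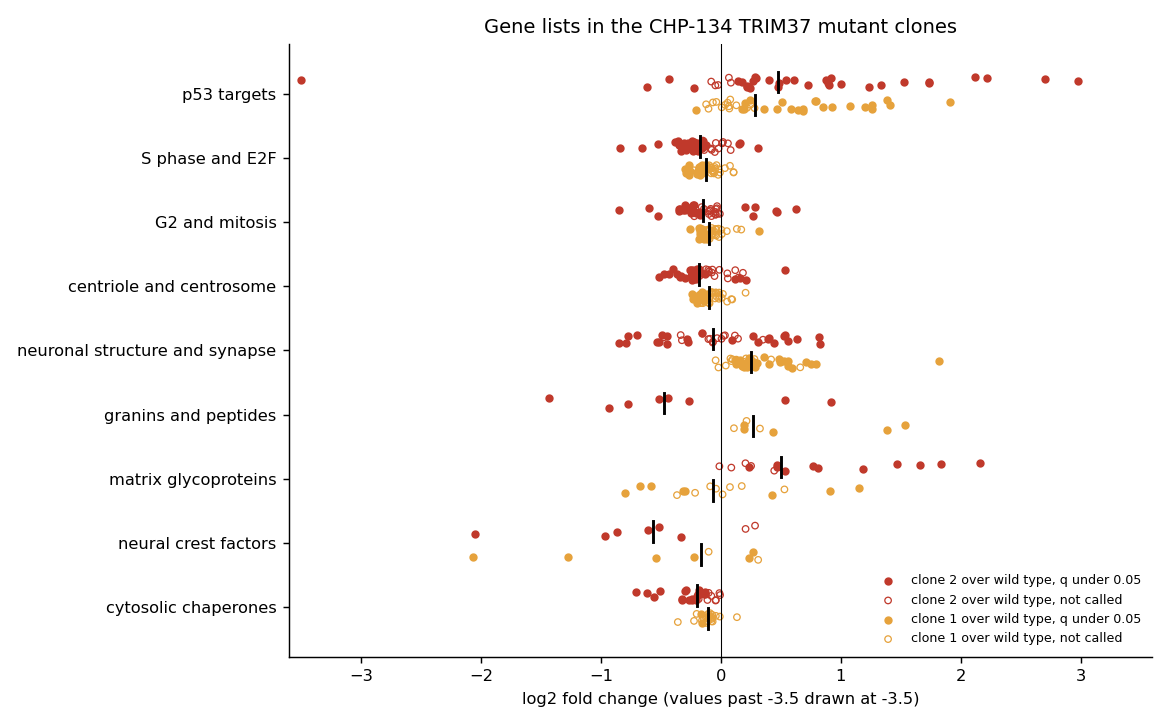
Deposited log2 fold changes of the measured members of 9 gene lists, with clone 2 over wild type in red above clone 1 over wild type in orange. Filled points were called at a q under 0.05, open points were not, black bars are medians, and CMBL at -5.40 is drawn at -3.5. The medians of the 2 clones stand on opposite sides of 0 for neuronal genes, granins and matrix glycoproteins.

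Sequence elements of cell cycle promoters are shown for MCM6 and POLE2, replication genes that fell, and for BUB1B, a spindle checkpoint gene that fell. In the authors' deposited table MCM6 changed by -0.24 (SE 0.0366), POLE2 by -0.35 (SE 0.0955) and BUB1B by -0.25 (SE 0.0652). For MCM6 and POLE2 capitals mark TTTCCCGC or TTTGGCGC, 2 forms of the E2F motif, and for BUB1B they mark TTTGAA, a form of the cell cycle homology region, each on either strand. From RefSeq on GRCh38.p14, MCM6 lies at chr2:135876394-135876693 on the minus strand, POLE2 at chr14:49688165-49688464 on the minus strand and BUB1B at chr15:40160819-40161118 on the plus strand, each shown 5′ to 3′.
MCM6: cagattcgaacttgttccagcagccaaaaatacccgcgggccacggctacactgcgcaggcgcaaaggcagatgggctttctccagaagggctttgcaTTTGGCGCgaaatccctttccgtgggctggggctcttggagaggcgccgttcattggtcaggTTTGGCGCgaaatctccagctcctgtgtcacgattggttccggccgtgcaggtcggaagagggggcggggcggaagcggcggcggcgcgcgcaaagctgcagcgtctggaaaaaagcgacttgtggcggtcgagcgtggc
POLE2: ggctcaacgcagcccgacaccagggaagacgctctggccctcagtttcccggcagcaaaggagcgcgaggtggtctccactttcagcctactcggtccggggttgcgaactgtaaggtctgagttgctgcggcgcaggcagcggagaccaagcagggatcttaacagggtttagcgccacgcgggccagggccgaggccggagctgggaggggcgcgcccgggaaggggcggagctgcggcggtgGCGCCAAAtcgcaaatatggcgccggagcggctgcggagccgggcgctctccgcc
BUB1B: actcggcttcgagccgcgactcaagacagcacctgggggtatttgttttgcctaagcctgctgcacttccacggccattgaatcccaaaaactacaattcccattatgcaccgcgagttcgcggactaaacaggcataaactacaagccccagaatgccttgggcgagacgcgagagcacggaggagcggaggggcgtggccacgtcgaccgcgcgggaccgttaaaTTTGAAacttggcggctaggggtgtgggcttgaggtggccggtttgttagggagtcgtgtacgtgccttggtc
The E2F forms were present in 11 of 25 known promoters of S phase genes that fell and in all 3 of those that rose, against 2.31% of all promoters. TTTGAA was present in 12 of 18 promoters of mitotic genes that fell and in 3 of 5 that rose, against 15.4% of all promoters. The presence of these letters therefore did not separate falls from rises within either list.

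Mitotic and centriolar genes fell too, but much of that count went with GC content. Over all 12771 measured genes 22.0% rose and 24.2% fell, against 2041 and 1984 genes with the GC trend removed. Of 44 measured G2 and mitosis genes, 6 rose and 20 fell, and with the GC trend removed 4 rose and 7 fell. Those 7 falls were near the share over all measured genes. CDC25B, the phosphatase that activates mitotic kinases, rose by 0.63 (SE 0.0435), and PLK1, a mitotic kinase, by 0.29 (SE 0.0422) in the authors' deposited table. SMC4, a subunit of condensin, fell by 0.85 (SE 0.0721), and CDC25C by 0.52 (SE 0.0657) in the authors' deposited table. Of 12 kinetochore genes 10 fell and 1 rose, against 1 and 0 with the GC trend removed. Of 40 measured centriole and centrosome genes, 4 rose and 22 fell, against 4 and 8 with the GC trend removed. PLK4, the kinase that starts centriole duplication, stood at -0.25 (SE 0.0614) in the authors' deposited table, and clone 1 at -0.17. Both partners of p53 in mitotic surveillance were measured: USP28 fell by 0.30 (SE 0.0595) and TP53BP1 rose by 0.12 (SE 0.049) in the authors' deposited table. Of 43 measured cilium and hedgehog genes 13 rose and 5 fell, and 14 rose and 5 fell with the trend removed. The intraflagellar transport genes IFT140 and IFT122 rose by 0.65 and 0.58 in the authors' deposited table, and AHI1, a gene of the ciliary transition zone, fell by 0.75.

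Neuronal genes were split in clone 2. Of 39 measured genes of neuronal structure and synapse, 12 rose and 12 fell, with a median of -0.065, and 9 rose and 10 fell with the GC trend removed. Over all measured genes 22.0% rose and 24.2% fell. Another 10 members of the neuronal list had the Status Outlier, 4 with a positive and 6 with a negative change. In clone 1, 26 of 38 rose and 0 fell, and 19 of the 38 genes measured in both were lower in clone 2 than in clone 1. NEFH, NEFM and NEFL, the subunits of neurofilaments, changed by -0.45, -0.78 and -0.53 in the authors' deposited table. GAP43, a growth cone protein, fell by 0.85 (SE 0.096) in the authors' deposited table, with implied means of 533 in clone 2 and 961 in wild type. In clone 1 its implied mean was 1686, and the difference between the clones was -1.64 (SE 0.125, adjusted p = 2.53e-37). CRMP1, an axonal signalling protein, rose by 0.54 (SE 0.0558) in the authors' deposited table.

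Most measured granin and neuropeptide genes were lower in clone 2. Of 8 measured granin and neuropeptide genes 6 fell and 2 rose, with a median of -0.48, and 5 fell and 2 rose with the GC trend removed. Another 2 had the Status Outlier, both with a positive change, and 5 had the Status Low. In clone 1, 5 of 8 rose and 0 fell, and 5 of the 8 were lower in clone 2 than in clone 1 while 1 was higher. SCG2, which encodes secretogranin II, fell by 0.93 (SE 0.0749) in the authors' deposited table, with implied means of 583 in clone 2, 2941 in clone 1 and 1113 in wild type. CPE, a prohormone-processing enzyme, stood at -0.44 (SE 0.0697), and SCG3 at -0.51 (SE 0.0945) in the authors' deposited table. CHGA, which encodes chromogranin A, rose by 0.92 (SE 0.0814) in the authors' deposited table, with clone 1 at 0.43. Ion channel and receptor genes numbered 42 measured, of which 8 rose and 13 fell, near the shares over all measured genes. With the GC trend removed 8 rose and 16 fell, and 12 were lower and 4 higher in clone 2 than in clone 1. The potassium channel gene KCNMA1 fell by 1.41 (SE 0.146) in the authors' deposited table. The glutamate receptor gene GRIA4 fell by 0.80 (SE 0.0876) in the authors' deposited table, with clone 1 at 0.94.

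The transcription factors of the adrenergic state did not move as a block. Of 12 measured, 5 rose and 2 fell, and 7 more had the Status Outlier. ISL1, a LIM-homeodomain factor, rose by 0.97 (SE 0.0593) in the authors' deposited table, with implied means of 1602 in clone 2 and 818 in wild type. PHOX2A, which drives noradrenergic differentiation, fell by 0.86 (SE 0.0485) in the authors' deposited table, with 1096 in clone 2, 1984 in wild type and 2692 in clone 1. MYCN, the amplified driver of many neuroblastomas, was at 0.0061 (SE 0.0635) in the authors' deposited table and was not called. Of 31 measured mesenchymal genes 7 rose and 8 fell, against 3 and 8 of 30 in clone 1, and the clone 2 counts are close to the 22.0% and 24.2% over all measured genes. NOTCH3 rose by 1.44 (SE 0.130) and CAV1, the coat protein of caveolae, fell by 1.95 (SE 0.265) in the authors' deposited table.

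Neural crest factors and retinoic acid genes leaned down. Over all measured genes 22.0% rose and 24.2% fell. Of 8 measured crest factors 6 fell and 0 rose, with a median of -0.56, and the same counts stood with the GC trend removed. In clone 1, 4 of the 8 crest factors fell and 2 rose, with a median of -0.16. SALL4, a zinc finger factor of stem cells, fell by 2.05 (SE 0.170) in the authors' deposited table, with clone 1 at -2.07. LIN28B, which blocks let-7 maturation, fell by 0.61 (SE 0.0681) in the authors' deposited table. SOX9 stood at -0.87 (SE 0.161) in the authors' deposited table. Of 16 measured retinoic acid genes 2 rose, 6 fell and 8 were not called, and 0 rose and 7 fell with the GC trend removed. Beside ALDH1A1 these were led by TGM2, a transglutaminase, at -2.38 (SE 0.219), and CRABP2, which carries retinoic acid to its receptor, at -1.27 (SE 0.117) in the authors' deposited table. The receptor gene RARA rose by 0.44 (SE 0.102) in the authors' deposited table. In clone 1, 2 of 16 measured retinoic acid genes rose and 2 fell.

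Glycoproteins of the extracellular matrix rose in clone 2. Of 16 measured, 11 rose and 0 fell, with a median of 0.50, and 10 rose and 0 fell with the GC trend removed. In clone 1, 3 of 14 rose and 5 fell, and 8 of the 14 measured in both were higher in clone 2 than in clone 1, with 0 lower. The basement membrane genes FBLN2 and NID1 rose by 1.84 and 1.19 in the authors' deposited table. FBLN2, which encodes fibulin 2, had implied means of 250 in clone 2, 36.5 in clone 1 and 69.9 in wild type. Collagens were mixed, with 6 of 23 up and 3 down, and 3 up and 5 down with the GC trend removed. Matrix proteases and crosslinkers were even at 5 up and 5 down of 14. LOXL2 rose by 1.40 (SE 0.159) in the authors' deposited table, opposite to LOX.

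Housekeeping groups changed by small amounts. For comparison, 22.0% of all 12771 measured genes rose and 24.2% fell, and 2041 rose and 1984 fell with the GC trend removed. Of 26 measured cytosolic chaperone and chaperonin genes 17 fell and 0 rose, with a median of -0.19, and 14 fell and 0 rose with the GC trend removed. HSPA9, a chaperone of the mitochondrial matrix that the list holds, fell by 0.71 (SE 0.0556) in the authors' deposited table, with implied means of 21121 in clone 2 and 34479 in wild type. HSP90AA1, the inducible form of HSP90, fell by 0.51 (SE 0.0888), and TCP1, a chaperonin subunit, by 0.29 (SE 0.055) in the authors' deposited table. Of 69 mitochondrial ribosomal protein genes 27 fell and 5 rose, against 18 and 2 with the GC trend removed. Cytosolic ribosomal protein genes went the other way, with 18 up and 2 down of 60, and 27 up and 4 down with the trend removed. Another 17 of them had the Status Outlier, 16 with a positive and 1 with a negative change. Proteasome genes had 15 down and 1 up of 35, against 8 and 0 with the trend removed, and aminoacyl-tRNA synthetase genes 8 down and 1 up of 13, against 6 and 0. Nuclear genes of oxidative phosphorylation had 8 up and 22 down of 71, against 5 and 11 with the trend removed. Those 11 falls were near the share over all measured genes.

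Other lists are given by their counts, to be read against 22.0% up and 24.2% down over all measured genes. Axon guidance genes had 20 up and 13 down of 50, against 9 and 13 with the GC trend removed, and NRP1, a semaphorin receptor, fell by 0.96 (SE 0.132) in the authors' deposited table. HOX genes had 5 up and 2 down of 18, with HOXA7 at 0.89 and HOXC10 at -1.90 in the authors' deposited table. The immediate early list had 8 up and 1 down of 19, with the same counts once the GC trend was removed, and EGR1 was at 1.17 in the authors' deposited table. Interferon genes had 8 up and 2 down of 19, against 5 and 1 with the GC trend removed. Another 28 interferon genes had the Status Low and 2 the Status Outlier, both with a negative change. IFITM3, an antiviral membrane protein, rose by 1.79 (SE 0.207) and B2M fell by 0.50 (SE 0.0903) in the authors' deposited table. Targets of YAP and TEAD had 8 up and 2 down of 21, against 6 and 4 with the trend removed, and LATS2, a kinase that inhibits YAP, rose by 1.55 (SE 0.195) in the authors' deposited table. Genes of Wnt and Notch signalling had 13 up and 4 down of 38, against 6 and 7 with the GC trend removed. Polycomb genes had 9 up and 8 down of 30, among which EZH2, the catalytic subunit, fell by 0.36 (SE 0.0487) in the authors' deposited table. Of 36 measured members of the TRIM family 12 rose and 6 fell, with TRIM71 at 0.97 and TRIM14 at -0.47 in the authors' deposited table. The 6 falls include TRIM37, the targeted gene.

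Zinc finger genes of chromosome 19 included runs of neighbours that were lost together. Of 444 measured ZNF genes 134 rose and 66 fell, against 152 and 37 with the GC trend removed. Over all measured genes 22.0% rose and 24.2% fell, so a larger share of the ZNF list rose and a smaller share fell. On chromosome 19, 76 of 216 rose and 28 fell, and 16 of the falls exceeded 1 on the log2 scale, while of 228 on other chromosomes 58 rose, 38 fell and 4 fell that far. By RefSeq order the measured neighbours ZNF808, ZNF701, ZNF137P and ZNF83 fell in a row, with a median of -3.69, and ZNF320, ZNF816 and ZNF702P did so with -2.98. ZNF83 had implied means of 5.24 in clone 2, 351 in clone 1 and 249 in wild type. The neighbours ZNF90 and ZNF486 fell by 5.26 (SE 0.270) and 4.97 (SE 0.208) in the authors' deposited table, and ZNF486 had implied means of 15.1 in clone 2 and 473 in wild type. For this pair the authors' deposited table gave 0.73 and 0.69 in clone 1. A run of ZNF763, ZNF433 and ZNF878 rose together, with a median of 1.44. Genes of these clusters are similar in sequence, and reads may have been shared among them.

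Neighbouring genes outside the zinc finger clusters also moved in pairs. CRYZ, a quinone reductase, and TYW3, an enzyme of tRNA modification, are next to each other on chromosome 1 and fell by 4.54 (SE 0.319) and 5.30 (SE 0.302) in the authors' deposited table. TYW3 had implied means of 4.84 in clone 2, 327 in clone 1 and 191 in wild type. On chromosome 4 the run TMEM175, DGKQ, IDUA and FGFRL1 rose, at 1.10, 1.52, 2.00 and 1.39 in the authors' deposited table. The mean count of IDUA was only 34.4. The homeobox pair DLX1 and DLX2 rose with a median of 1.66, and ZIC5 with ZIC2 rose with a median of 1.24. ZIC5 and ZIC2 had low mean counts of 18.8 and 33.9. All these pairs and runs were chosen by their own values, so the numbers describe them and are no test.

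The end of the long arm of chromosome 3 was lower as a whole. Among genes of mean count 100 or more in RefSeq order, the stretch whose running median left 0 ran from HPS3 to LMLN and held 133 genes. Of these, 118 fell, which is 88.7%, and 2 rose, with a median of -0.56 and quartiles of -0.70 and -0.36. The median is a level of 0.676 of wild type. In the 463 other genes of the chromosome 28.1% fell, with a median of -0.050. With the GC trend removed the median of the stretch was -0.48, and in clone 1 its deposited median was 0.013. Of the 133 genes 113 were lower in clone 2 than in clone 1 and 2 were higher. The stretch was found by its own values, so these numbers describe it and are no test. It holds RFC4 and SMC4, named above, as well as NDUFB5, a subunit of respiratory complex I, at -0.73 (SE 0.0557), and PSMD2, a proteasome subunit, at -0.50 (SE 0.0477) in the authors' deposited table. FGF12, which encodes a modulator of sodium channels, fell by 1.94 (SE 0.0804) in the authors' deposited table, more than the stretch. ZMAT3, the p53 target in the stretch, was at -0.079 (SE 0.0567) and was not called, with clone 1 at 0.51 in the authors' deposited table. Without the 166 measured genes of the stretch at any mean count, 2808 genes rose and 2956 fell. DNA copy number was not analysed here.

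**Figure D5:**
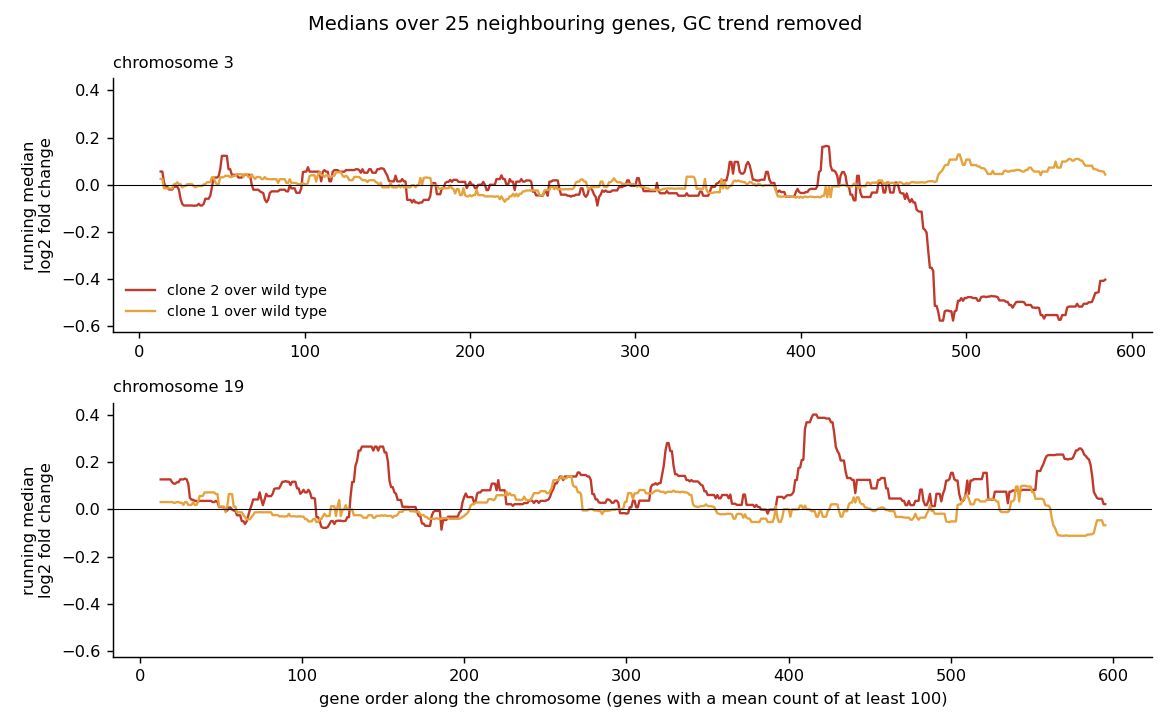
Medians of the log2 fold change over 25 neighbouring genes after the GC trend was removed, by gene order along chromosomes 3 and 19, for clone 2 (red) and clone 1 (orange) over wild type. On chromosome 3 the clone 2 line drops from near 0 to about -0.5 at the end of the chromosome while the clone 1 line stays near 0.

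Smaller stretches stood off 0 as well, and some of them are given. They too were found by their own values, so their medians and counts describe them and are no test. Over all measured genes 22.0% rose and 24.2% fell. On chromosome 1 the 69 genes from LZIC to EIF4G3 had a median of -0.18, or -0.31 with the GC trend removed, and 35 of them fell and 7 rose. On chromosome 17 the 43 genes from KCNJ12 to GOSR1 had a median of 0.30, or 0.16 with the trend removed, with 25 up and 5 down. On chromosome 19 the 51 genes from ZNF574 to DMPK had a median of 0.30, or 0.21 with the trend removed, with 29 up and 0 down. The clone 1 medians of these 3 stretches were 0.0079, -0.051 and 0.015. On chromosome 4 the 27 genes from ZNF595 to ADD1 had a median of 0.355, or 0.21 with the trend removed, with 19 up and 2 down. On chromosome 7 the 25 genes from NRCAM to GRM8 had a median of -0.33, or -0.20 with the trend removed, with 0 up and 18 down. In clone 1 the medians of these stretches of chromosomes 4 and 7 were -0.10 and 0.020. Not every stretch found was so clear. From LYN to TCEB1 on chromosome 8 the median was 0.0052, or 0.14 with the trend removed. From TK1 to CCDC137 on chromosome 17 the median was 0.31 in clone 2, and clone 1 was raised too, at 0.15.

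Genes with the Status Outlier carry a q of 1 whatever their change, and they included abundant neuronal genes. Of the 736, 628 had this Status in the clone 1 table too, which is 85.3% of them and 93.6% of the 671 there. Their median GC content was 59.8%, against 47.9% for measured genes, and 529 had positive and 207 negative changes. STMN2, a regulator of neuronal microtubules, was at -3.56 (SE 0.144) in the authors' deposited table, with implied means of 728 in clone 2, 11227 in clone 1 and 8592 in wild type. FABP7, a fatty acid binding protein, was at -3.32 (SE 0.169), and IGFBP5, which binds insulin-like growth factors, at -2.97 (SE 0.335) in the authors' deposited table. IFI44L, an interferon-induced gene, was at -2.36 (SE 0.136) in the authors' deposited table, and clone 1 at -2.15. HAND1, a transcription factor of the sympathetic lineage, was at 2.30 (SE 0.164) in the authors' deposited table, with implied means of 1039 in clone 2 and 211 in wild type. The receptor gene NOTCH1 was at 2.07 (SE 0.254) and its ligand DLL3 at 1.71 (SE 0.151) in the authors' deposited table. Of 19 listed genes of cholesterol synthesis 15 had this Status, 13 of them with a negative change, such as MSMO1 at -0.59 (SE 0.201) in the authors' deposited table. None of these genes has a call, and the reason for the Status could not be seen without values per library.

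The RPE1 TRIM37 knockout, 9 libraries against 9 of wild type, gives a comparison with other controls in another cell type. RPE1 cells are retinal pigment epithelium immortalised with telomerase. There 6963 of 13002 measured genes were called, which is 53.6%. Of 11160 genes measured in both, 1571 were called with the same sign, which is 30.6% of the clone 2 calls and 27.0% of the knockout calls, and 1303 with opposite signs. Past a log2 fold change of 1 in both, 10 rose and 6 fell. The 10 included PTCHD4, with 1.53 in clone 2, 1.20 in clone 1 and 2.27 in the RPE1 knockout in the authors' deposited tables. DRAXIN, an axon guidance protein, had 1.47 in clone 2 and 2.02 in the RPE1 knockout in the authors' deposited tables. Clone 1 stood at -0.041 for DRAXIN, and its mean count in the RPE1 comparison was only 18.7 (SE of the change 0.322). BEX2 rose by 1.22 in clone 2 and 1.31 in the RPE1 knockout, while clone 1 stood at -1.39 in the authors' deposited tables. Among the 6 that fell besides TRIM37 was TRAF1, a signalling adaptor, with -2.69 in clone 2 and -1.32 in the RPE1 knockout in the authors' deposited tables. Clone 1 stood at -0.175 for TRAF1. These genes were chosen by their values in both tables.

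Markers of the labelled cell type were present. Of 12 neuroblastoma markers 8 were measured, 2 had the Status Outlier and 2 the Status Low, and 3 of the 8 rose and 3 fell. Of 12 markers of epithelial cells or RPE1 9 had the Status Low, and of 7 blood markers 4 did. Of 8 fibroblast markers 5 were measured, where PDGFRA fell as above, and COL3A1 rose by 2.00 (SE 0.263) at a mean count of 35.7 in the authors' deposited table. The part of other cells in the matrix and adhesion genes was not tested.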

How the data were processed

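The authors deposited tables of comparisons, with 1 row per gene symbol. STAR and DESeq2 are named in the submitters' processing notes, without versions. These sources give no genome build, annotation, strand setting or way of counting reads, so these are treated as unknown. Per the file headers, each row holds a Status, a mean count, a log2 fold change with its standard error, and a q-value (an adjusted p-value), all computed by the authors. No count per library was used here, and library depth is unknown.

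Genes with the Status OK were called at a deposited q under 0.05. Intervals are the log2 fold change plus and minus the normal 95% range of its standard error. Implied group means were computed from the deposited mean count and log2 fold change. Over 11016 genes the wild type means implied by both clone tables differed by a median of 0.0893 on the log2 scale (quartiles 0.0868 and 0.0916), and clone 1 means are given on the clone 2 scale. The difference between clones was the deposited log2 fold change of clone 2 minus that of clone 1, divided by the square root of the sum of both squared standard errors, with Benjamini-Hochberg adjustment, checked on simulated data. Because the shared wild type enters both tables, this standard error is too large if anything. GC content was taken from GENCODE transcripts by symbol, gene order and promoters from RefSeq. The trend with GC was removed as the median of 20 bins, an alternative chosen after seeing the data.

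The genes named were the 15 largest rises and 15 largest falls with a mean count of at least 50, the 10 largest ratios of change to error in each direction, 4 called members of each of 44 lists and those needed to describe a role group, the 10 largest clone differences in each direction, and the 10 largest Outlier changes in each direction. Further genes were chosen after their values were seen. The members and lists were chosen with earlier results of these data known.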

Additional observations from a re-analysis of the deposited data

Results flagged for a closer look

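Clone 2 and clone 1 differed in 2580 genes by the test of the difference itself, and the genes named here passed it. Clone 2 was higher than clone 1 for GTSF1 by 6.55 on the log2 scale, RCN1 by 5.77, CALD1 by 5.09, LOC650368 by 3.52, TMEM56 by 3.26, LINC00654 by 3.10, COL26A1 by 2.86, ZIK1 by 2.75, RARRES2 by 2.66 and BEX2 by 2.61. The difference of clone 2 minus clone 1 was -8.59 for GAGE1, -6.03 for ZNF83, -6.02 for TYW3, -5.99 for ZNF90, -5.97 for S100A6, -5.87 for CMBL, -5.65 for NEUROD4, -5.65 for ZNF486, -5.46 for ALDH1A1 and -5.27 for CRYZ.

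Outlier genes have no call in the deposited table. When their deposited changes and errors were tested with those of the measured genes, 474 of the 736 passed an adjusted p of 0.05, of which 373 were positive and 101 negative.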

How the results depend on the processing

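Of 5898 calls, 2811 up and 3087 down, stricter rules kept fewer. At a q under 0.001 there were 3170 (1555 up, 1615 down), at 1.5-fold or more 1508 (878 up, 630 down) and at a log2 fold change of 1 or more 520 (272 up, 248 down). With the null rescaled to the observed spread there were 253 (98 up, 155 down). The 2580 differences between clones became 1232 at an adjusted p under 0.001, 1104 at 1.5-fold or more, 501 at a log2 difference of 1 or more and 599 with the null rescaled. With the GC trend removed 1984 genes fell, 1595 rises and 1555 falls were shared with the deposited calls, and 15 shared calls had the other sign. Among the 203 genes fixed by rule, 192 kept their direction and call with the GC trend removed, and 85 did so with the null rescaled, where 118 no longer passed. With the GC trend removed PFKL reversed to -0.02, E2F1 to -0.13 and TMEM68 to 0.01. No paired analysis was possible because the deposited tables hold no values per library, and for the same reason no library could be left out. Library depth is unknown, so what it limits could not be assessed.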
